A study of Mus musculus with 12 samples.

Results

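The comparison described here set pituitary corticotrophs of mice 28 d after the end of dexamethasone (DEX) treatment against those of mice 7 d after it. It covers every gene with a value above 0.1 in at least 3 of the 12 libraries of the series, which is 24736 of the 55304 genes listed. All mice were males on the C57Bl6/J background carrying an eGFP transgene under the *Pomc* promoter, and their age is given as 8 weeks. Both recovery groups had received 2.5 µg/ml DEX, a synthetic glucocorticoid, in drinking water for 4 weeks, and were then kept on plain water for 7 d or 28 d. The other groups of the series are a control group on plain water and a DEX group taken at the end of treatment, each with 3 pools. Their values are given as reference levels. Each library came from eGFP-positive anterior pituitary cells of about 3 pooled pituitaries, so the n of 3 per group counts pools and not mice. By the protocol all groups ended together, the 7 d mice having had 3 weeks of plain water before DEX and the 28 d mice none. The recovery groups were thus of like age at harvest, while age at the start of DEX differed by 3 weeks and cannot be told apart from recovery time.

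Corticotrophs are the pituitary cells that make proopiomelanocortin (POMC) and cut it to ACTH, the hormone that drives glucocorticoid output from the adrenal cortex. Hypothalamic corticotrophin releasing hormone and vasopressin stimulate them. Glucocorticoids restrain both the hypothalamic neurones and the corticotrophs, so long treatment with a synthetic glucocorticoid silences the axis. After withdrawal the corticotrophs can regain drive while adrenal glucocorticoid output is still low. The comparison of 7 d with 28 d asks what differs between an early and a later stage of that recovery.

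The 7 d pools held 9057793 to 11171892 reads on genes and the 28 d pools 9653421 to 12848078. Values are normalised counts, that is counts per scaled library size (CPM after TMM scaling), and 1 read was worth 0.0902 to 0.127 in these 6 pools. *Pomc*, whose promoter drove the eGFP used for sorting, took 4.33% to 19.997% of reads at 7 d and 4.56% to 6.92% at 28 d. The products of other pituitary cells were also present. Growth hormone (*Gh*) took 9.23% to 17.7% of reads at 7 d and 15.4% to 22.9% at 28 d, and prolactin (*Prl*) took 4.38% to 9.76% and 8.17% to 10.3%. *Gh* took more reads than *Pomc* in 7 d pool 3 and in every 28 d pool, and fewer in 7 d pools 1 and 2. The 7 d pools differed from each other more than the 28 d pools did, and each stood apart in its own way. Pool 1 held immunoglobulin transcripts, and pool 2 had the highest *Pomc* and the fewest detected genes (20952). Pool 2 also had the lowest TMM factor of the 12 libraries (0.702), so 1 read was worth most there (0.127). Pool 3 had the most detected genes (24474) with low corticotroph receptors and high endothelial genes. Of all tested genes, 70.2% had a wider log2 range over the 7 d pools than over the 28 d pools. The median log2 range was 1.20 at 7 d and 0.74 at 28 d, against 1.02 in control and 0.86 in DEX pools.

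*Pomc* itself did not separate the recovery groups. The 7 d pools held 149459, 284740 and 43612 normalised counts, and the 28 d pools held 49562, 48189 and 80216. Pools 1 and 2 at 7 d lay above every 28 d pool and pool 3 lay below them all, so the groups overlapped. The log2 difference (28 d minus 7 d, on log2 of the value plus 0.1) was -1.09 ± 1.10 (SE, 3 against 3 pools), with a limma p of 0.336 and a 95% interval from -3.43 to 1.25. The mean at 28 d (59322 ± 18108, SD, n = 3) was near that of control pools (61015 ± 22908, n = 3), and DEX pools had 5708 ± 2437 (n = 3). The edgeR likelihood ratio test gave -1.42 with an adjusted p of 0.0234, and edgeR's quasi-likelihood test gave an adjusted p of 0.923. Without 7 d pool 3 the limma difference was -1.84, and without 7 d pool 2 it was -0.49. In these bulk libraries, fewer cells of a type and less RNA per cell cannot be told apart.

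**Figure D1:**
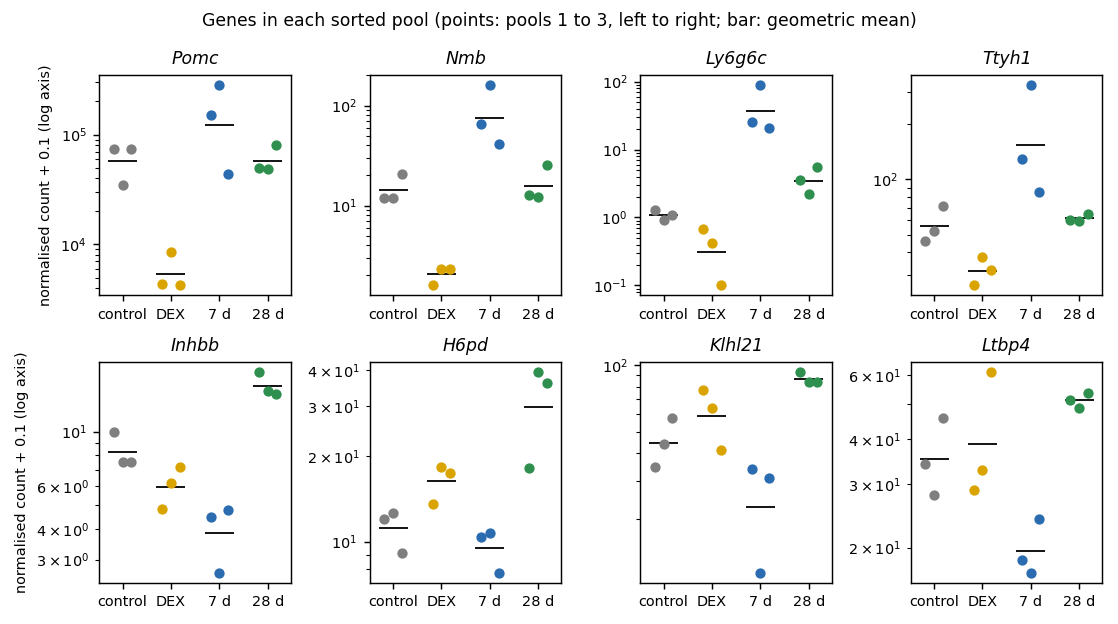
Normalised count plus 0.1 on a log axis (y) in each of the 3 pools of the 4 groups (x) for *Pomc* and 7 genes with small p in this comparison; points are pools 1 to 3 from left to right and bars are geometric means. *Pomc* pools at 7 d reached both above and below the 28 d pools, whereas the 28 d pools of *Inhbb*, from 14.2 to 17.5, all lay above the 7 d pools, from 2.55 to 4.67.

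No gene passed an adjusted p of 0.05 between 28 d and 7 d in limma, where the smallest adjusted p was 0.533. At an unadjusted p under 0.05, 915 genes were higher at 28 d (3.7% of those tested) and 437 were lower (1.77%), together 5.47%. The split rested on 7 d pool 2, without which 734 were higher and 1063 lower, and with array weights it was 1627 and 1640. The 3 pools of one group lay entirely above the 3 of the other in 1285 genes higher at 28 d (5.19%) and 921 lower (3.72%). For any such gene the two-sided exact permutation p is 0.1, the smallest that 3 pools against 3 allow. With 7 d pool 1, 2 or 3 left out, 2501 (10.1%), 2516 (10.2%) and 2605 (10.5%) genes were higher at 28 d without overlap, and 2355 (9.52%), 2912 (11.8%) and 2415 (9.76%) were lower. Fewer pools separate more readily by their number alone, so these shares cannot be set against those of 3 against 3 pools. Of the 1285 genes, 7 d pool 2 was the lowest of the 7 d pools in 709 (55.2%). Other tests of the same contrast called few to many genes. The edgeR quasi-likelihood test on recovered reads called 0 (1269 at an unadjusted p under 0.05), limma with array weights called 8 (0.0323%), DESeq2 called 15 (0.0905% of 16569 genes with an adjusted p), and the edgeR likelihood ratio test called 165 (0.667%). The groups did not overlap in 104 of the 109 genes that the likelihood ratio test called higher at 28 d and in 11 of the 56 that it called lower. Predicted genes among the smallest adjusted p were *Gm15883*, a gene annotated as antisense, and *Gm48565*. *Gm15883* had 20.2, 46.1 and 27.8 normalised counts at 7 d and 44.3, 68.6 and 74.0 at 28 d, with overlap. *Gm48565* reached 41.2 in 7 d pool 3 and at most 0.657 in the other 5 pools. Array weights and DESeq2 shared 6 genes, *Inhbb*, *H6pd*, *Klhl21*, *Slc6a11*, *Ltbp4* and *Nmb*. The array weights were 2.44, 0.341 and 0.351 for 7 d pools 1, 2 and 3 and 0.821, 2.03 and 1.39 for the 28 d pools. That fit thus leaned on 7 d pool 1, and it also called *Igha* (adjusted p = 0.0441), which was high in that pool alone.

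**Figure D2:**
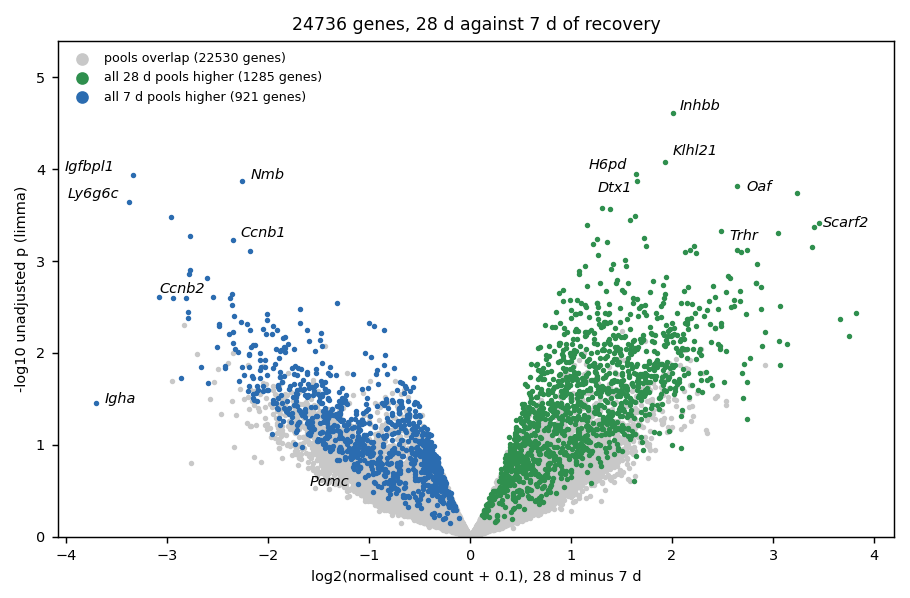
Difference in log2(normalised count + 0.1) between 28 d and 7 d (x) against -log10 of the unadjusted limma p (y) for each of the 24736 genes; green points are 1285 genes with all 28 d pools higher, blue points 921 with all 7 d pools higher, and grey points have overlapping pools. *Inhbb* and *Klhl21* have the smallest p among genes higher at 28 d and *Igfbpl1* and *Nmb* among those lower, while *Pomc* lies low at a difference of -1.09.

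Among the 12 best separated genes that were higher at 28 d, the smallest p belonged to *Inhbb*, which encodes the inhibin beta B subunit that also forms activin B (GRCm38, chr1:119415465-119422248). It had 4.37, 2.55 and 4.67 normalised counts at 7 d and 17.5, 14.6 and 14.2 at 28 d. Control pools averaged 8.22 ± 1.40 (SD, n = 3) and DEX pools 5.95 ± 1.18, so the 7 d pools lay below and the 28 d pools above the mean of control pools. The log2 difference was 2.01 ± 0.34 (SE; adjusted p = 0.533 in limma), and the adjusted p was 0.0375 with array weights and 1.64e-05 in DESeq2.

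*H6pd* encodes hexose-6-phosphate dehydrogenase, the enzyme of the endoplasmic reticulum that supplies the NADPH used by 11β-hydroxysteroid dehydrogenase type 1 to regenerate active glucocorticoid (chr4:149979475-150009023). Its 7 d pools held 10.3, 10.6 and 7.67 normalised counts, and its 28 d pools held 18.1, 39.4 and 36.0. All 28 d pools were higher, with pool 1 nearest to the 7 d range. The log2 difference was 1.64 ± 0.32 (SE), and the control mean of 11.1 lay close to the 7 d values. *Klhl21*, an adaptor of a cullin 3 ubiquitin ligase needed for chromosome segregation (chr4:152008803-152017680), read 33.7, 11.3 and 30.6 at 7 d and 93.3, 84.2 and 83.9 at 28 d. The 28 d pools were tightly grouped, 7 d pool 2 was the lowest, and the log2 difference was 1.93 ± 0.37 (SE).

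Both *Ltbp4* and *Ltbp3*, which encode latent TGF-β binding proteins of the extracellular matrix, were in this group. *Ltbp4* had 18.3, 16.95 and 23.9 normalised counts at 7 d and 51.1, 48.6 and 53.5 at 28 d (log2 difference 1.38 ± 0.30). *Ltbp3* had 57.6, 36.5 and 63.1 at 7 d and 111, 118 and 113 at 28 d (1.16 ± 0.26). For both genes the 28 d pools lay within a narrow band above all 7 d pools and also above the control means of 35.7 and 84.5. *Slc6a11*, a GABA transporter, had 15.5, 14.3 and 22.2 at 7 d and 38.1, 42.4 and 46.7 at 28 d, a log2 difference of 1.31 ± 0.28. *Dtx1*, an E3 ligase that modulates Notch signalling, had 20.8, 8.79 and 11.01 at 7 d and 34.0, 45.2 and 41.5 at 28 d (1.65 ± 0.33). Neither gene overlapped between groups, and the DEX means of 27.9 and 33.9 lay between the recovery groups.

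The other genes of this set were *Oaf*, *Ccdc92b*, *Fxr2*, *Pm20d2* and *Scarf2*. *Oaf* had 5.70, 1.53 and 3.89 normalised counts at 7 d and 11.3, 26.9 and 30.0 at 28 d, with a log2 difference of 2.65 ± 0.53. *Fxr2*, an RNA-binding paralogue of the fragile X protein, had 28.8, 12.4 and 27.9 at 7 d and 50.8, 69.9 and 75.6 at 28 d. In both, 7 d pool 2 was the lowest library. *Ccdc92b* averaged 9.397 ± 4.09 (SD, n = 3) at 7 d and 28.6 ± 8.82 (n = 3) at 28 d. *Pm20d2* and *Scarf2*, a scavenger receptor family member, were low at 7 d, with at most 28 and 7 reads in any 7 d pool, and reached 8.13 and 4.82 normalised counts at 28 d. Over the 12 genes the adjusted p in limma lay between 0.533 and 0.577. Because they were picked for lack of overlap, leaving out 1 pool could not change the sign of any difference.

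In the other direction stood *Nmb*, which encodes neuromedin B, a bombesin-like peptide that the anterior pituitary makes (chr7:80902227-80905076). The 7 d pools held 64.5, 162 and 41.5 normalised counts and the 28 d pools 12.7, 12.04 and 25.4. Every 7 d pool lay above every 28 d pool, and the 28 d mean of 16.7 was near that of control pools (14.8), with DEX pools at 1.98. The log2 difference was -2.26 ± 0.45 (SE; adjusted p = 0.533 in limma, 0.0375 with array weights and 0.00135 in DESeq2). *Ly6g6c*, a member of the Ly6 family of GPI-anchored surface proteins in the MHC class III region (chr17:35065388-35070050), showed a wider gap. It had 25.6, 90.4 and 20.7 at 7 d and 3.42, 2.08 and 5.504 at 28 d. The log2 difference was -3.38 ± 0.71 (SE), and the 28 d pools still lay above the control mean of 0.994. In *Nmb*, *Ly6g6c* and *Ttyh1*, 7 d pool 2, the pool with the most *Pomc*, was the highest library and pool 3, the one with the least, was the lowest of the 7 d pools. The part of *Pomc* content in these differences was not tested. *Ttyh1*, a membrane protein linked to volume-regulated chloride currents, had 128, 329 and 85.2 at 7 d against 60.2, 59.1 and 64.9 at 28 d, a log2 difference of -1.32 ± 0.37 that was -0.77 without 7 d pool 2.

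Of the other genes separated in this direction, *Tubb5*, a β-tubulin, had 105, 193 and 109 normalised counts at 7 d and 47.5, 74.8 and 76.8 at 28 d. *Pak3*, a p21-activated kinase, had 108, 100.2 and 127 at 7 d and 67.5, 68.5 and 50.3 at 28 d. *Fign*, which encodes the microtubule-severing protein fidgetin, had 5.80, 3.57 and 4.11 at 7 d and 1.57, 1.53 and 1.44 at 28 d. The *Pak3* and *Fign* control means of 85.95 and 5.34 lay above the 28 d pools. *Gins1*, a subunit of the replicative helicase complex, *Rtp2* and *Igfbpl1* rested on few reads. *Igfbpl1* had at most 17 reads in a 7 d pool and 1 read in any 28 d pool, so no fold is given.

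The clearest gene group lower at 28 d was the cell cycle list of 32 genes. Of these, 7 lay lower at 28 d without overlap (21.9%, against 3.72% of all genes) and 0 lay higher. At an unadjusted p under 0.05, 11 were lower, against 1.77% of all genes. The median log2 difference was -0.91, against -0.02 over all genes tested. Differences were negative for 29 of the 32, against 12957 of the 24736 genes tested. No member passed the adjusted threshold in limma, while DESeq2 called *Ccnb1* and *Ccnb2*. The list was chosen with earlier results of these data known. Members that the study listed as changed in these samples include *Ccnb1*, *Ccnb2*, *Hmmr*, *Pbk* and *Top2a*. The share is thus no independent evidence.

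The members with the largest gaps act in mitosis. *Ccnb1* (cyclin B1, chr13:100778650-100786570) had 9.89, 8.67 and 4.00 normalised counts at 7 d and 0.832, 1.423 and 1.80 at 28 d, with a log2 difference of -2.35 ± 0.55 (SE). *Ccnb2* (cyclin B2) had 7.32, 5.23 and 4.00 at 7 d and 0.832, 1.09 and 0.632 at 28 d, a difference of -2.55 ± 0.70. *Cdk1*, their kinase partner, had 5.51, 5.10 and 2.45 at 7 d and 0.185, 1.86 and 0.902 at 28 d. In all 3 genes the 7 d pools lay above the 28 d pools, pool 3 was the lowest at 7 d, and the 28 d values were within about 1 normalised count of the control means of 1.27, 0.506 and 0.916. *Hmmr*, a spindle-associated hyaluronan receptor, had 7.89, 5.48 and 2.22 at 7 d and 0.554, 1.31 and 0.722 at 28 d. *Birc5* (survivin, a chromosomal passenger protein) averaged 2.86 ± 1.97 (SD, n = 3) at 7 d and 0.773 ± 0.04 at 28 d, and *Ccna2* (cyclin A2) had 27.2, 11.6 and 15.1 at 7 d against 7.67, 10.2 and 10.6 at 28 d. Most of these levels rest on fewer than 110 reads per pool.

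Other members overlapped between groups. *Pbk*, a mitotic kinase, had 20.5, 7.77 and 3.00 normalised counts at 7 d and 0.185, 4.05 and 1.08 at 28 d. The proliferation markers *Top2a* (14.4, 6.25 and 2.89 at 7 d, and 1.48, 4.71 and 3.79 at 28 d) and *Mki67* (6.75, 0.892 and 1.89, and 0.277, 1.423 and 0.812) were highest in 7 d pool 1. The median of the list, relative to the mean of each gene over the 12 pools, was 2.08, 0.99 and -0.01 in the 7 d pools and -0.26, 0.14 and 0.01 in the 28 d pools. The summed list was 565, 454 and 214 normalised counts at 7 d and 287, 292 and 293 at 28 d, so on this scale 7 d pool 3 lay below every 28 d pool. The 6 *Mcm* genes, which license DNA replication, had differences from -0.26 to 0.04, nearer to 0 than the mitotic genes. Without 7 d pool 1 the list median was -0.49, without pool 2 it was -1.03 and without pool 3 it was -1.35.

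**Figure D3:**
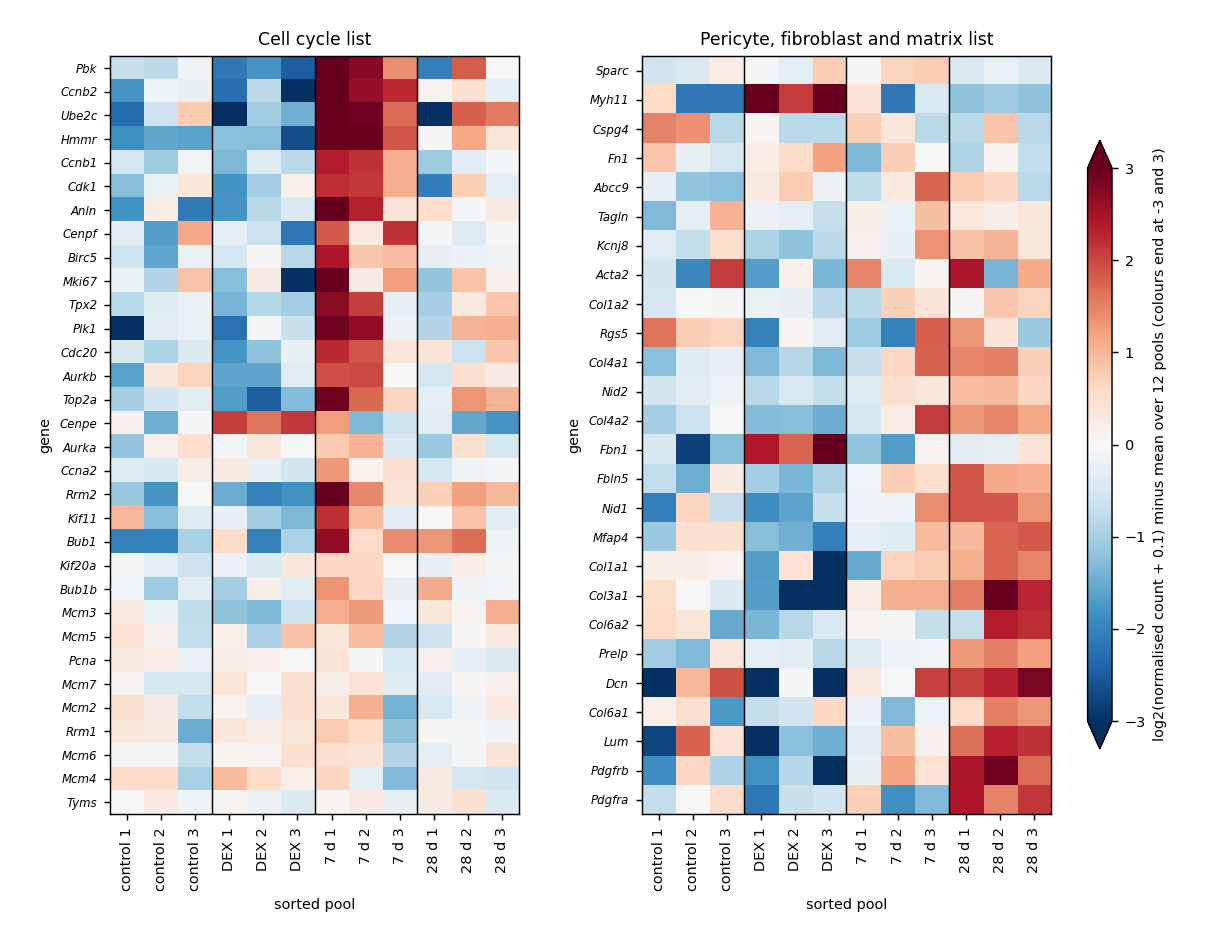
Each row is a gene and each column a sorted pool, grouped as control, DEX, 7 d and 28 d; colour gives log2(normalised count + 0.1) minus the mean of the gene over the 12 pools, from -3 in blue to 3 in red. Cell cycle genes are red in 7 d pools 1 and 2 and weaker in pool 3, while matrix genes such as *Prelp*, *Pdgfra* and *Pdgfrb* are red in the 3 pools at 28 d.

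Since the mitotic genes lay lower together, the 250 bases before the start site of 4 of them are printed here, from RefSeq on GRCm38.p6, each 5′ to 3′ on the strand of its gene. Many promoters of genes used in G2 and M phase are known to carry CCAAT boxes, bound by NF-Y, and the cell cycle gene homology region with the letters TTTGAA. Capitals mark CCAAT or its reverse ATTGG, and TTTGAA or its reverse TTCAAA. The *Ccnb1* stretch is chr13:100786487-100786736, *Ccnb2* chr9:70421555-70421804, *Cdk1* chr10:69352913-69353162 and *Hmmr* chr11:40733438-40733687, all on the minus strand. Start sites are those of RefSeq. The GENCODE genes begin upstream of these sites for *Ccnb1* and *Cdk1*, so that the last 84 and 26 bases of their stretches, with the *Ccnb1* CCAAT and the *Cdk1* TTTGAA nearest to the start, lie within the GENCODE gene.
*Ccnb1*: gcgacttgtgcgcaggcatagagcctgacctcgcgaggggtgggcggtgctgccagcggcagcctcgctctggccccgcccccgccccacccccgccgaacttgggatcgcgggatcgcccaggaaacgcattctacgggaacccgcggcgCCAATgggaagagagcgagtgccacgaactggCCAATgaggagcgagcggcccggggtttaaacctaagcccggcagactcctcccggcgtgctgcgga
*Ccnb2*: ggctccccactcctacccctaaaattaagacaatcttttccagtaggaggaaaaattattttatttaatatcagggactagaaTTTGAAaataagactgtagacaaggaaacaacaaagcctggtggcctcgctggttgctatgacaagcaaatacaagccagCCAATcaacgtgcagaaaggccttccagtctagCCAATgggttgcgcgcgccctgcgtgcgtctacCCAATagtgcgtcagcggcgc
*Cdk1*: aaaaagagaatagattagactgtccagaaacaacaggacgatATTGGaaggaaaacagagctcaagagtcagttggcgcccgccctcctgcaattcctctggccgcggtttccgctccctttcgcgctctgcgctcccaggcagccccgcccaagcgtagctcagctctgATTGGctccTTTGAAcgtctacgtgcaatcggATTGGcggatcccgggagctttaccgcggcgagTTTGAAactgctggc
*Hmmr*: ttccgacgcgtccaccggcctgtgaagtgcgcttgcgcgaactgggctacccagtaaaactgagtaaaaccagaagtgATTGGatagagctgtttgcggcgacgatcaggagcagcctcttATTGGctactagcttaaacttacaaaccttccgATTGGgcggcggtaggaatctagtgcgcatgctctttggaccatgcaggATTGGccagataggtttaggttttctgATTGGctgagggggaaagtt

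The letters CCAAT or ATTGG occurred 2 times in the *Ccnb1* stretch, 3 times in *Ccnb2*, 3 times in *Cdk1* and 5 times in *Hmmr*. TTTGAA occurred 1 time in *Ccnb2* and 2 times in *Cdk1*, where the nearer copy began 15 bases before the start site. Promoters were found for 26 of the 32 cell cycle genes, and CCAAT in either direction was in 23 of these (88.5%) against 34.5% of all 27025 promoters of the same length. TTTGAA in either direction was in 8 of the 26 (30.8%) against 16.3%. In these 4 stretches no match of one motif overlapped a match of the other, and a match is a description of the sequence and not a measured binding site.

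Genes of pericytes, fibroblasts and extracellular matrix lay on the other side. Of 26 members, 11 were higher at 28 d without overlap (42.3%, against 5.19% of all genes) and 1 was lower. The median log2 difference was 0.78, and 7 were higher at an unadjusted p under 0.05 with 1 lower (all genes: 3.7% and 1.77%). None passed the adjusted threshold in limma, edgeR's quasi-likelihood test or DESeq2. This list too was chosen with earlier results known. Members that the study listed as changed include *Prelp*, *Pdgfrb*, *Col3a1*, *Nid2*, *Mfap4* and *Col4a1*. The share is thus no independent evidence. *Prelp*, a leucine-rich proteoglycan that anchors basement membrane to connective tissue, had 7.60, 9.05 and 9.34 normalised counts at 7 d and 24.2, 28.5 and 23.5 at 28 d. Its log2 difference was 1.54 ± 0.39 (SE), and control and DEX means were 7.07 and 7.15, so the 28 d pools lay apart from the means of all the other groups. *Pdgfra*, the PDGF receptor of fibroblasts, had 1.24, 0.128 and 0.222 at 7 d and 4.25, 2.19 and 3.43 at 28 d. *Pdgfrb*, the receptor of pericytes, had 0.951, 2.68 and 1.56 at 7 d and 6.56, 8.98 and 3.79 at 28 d.

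Collagens and basement membrane genes followed, at low levels. *Col3a1* (type III collagen) had 2.09, 3.82 and 3.89 normalised counts at 7 d and 5.27, 14.8 and 9.02 at 28 d. *Col6a1* (type VI collagen) had 2.09, 0.892 and 2.11 at 7 d and 3.51, 7.01 and 6.14 at 28 d, and *Nid2* (nidogen 2) had 11.7, 21.2 and 19.5 at 7 d and 29.1, 30.1 and 24.0 at 28 d. These groups did not overlap, and neither did those of *Mfap4*, a microfibril protein with a log2 difference of 1.41 ± 0.57. *Col4a1* (type IV collagen) did overlap, with 7.60, 18.9 and 42.5 at 7 d and 34.1, 35.5 and 20.4 at 28 d. Over the list 20 differences were positive and 6 negative. The 1 member lower at 28 d without overlap was *Sparc*, a secreted collagen-binding glycoprotein and the most abundant of the members named here. It had 98, 153 and 162 at 7 d and 72.1, 83.8 and 72.6 at 28 d. The list summed to between 236 and 503 at 7 d and between 404 and 539 at 28 d. Its median difference was 0.71, 0.78 and 1.31 without 7 d pool 1, 2 or 3.

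Endothelial markers did not follow the same separation. None of 18 members had groups without overlap, against 5.19% of all genes higher at 28 d and 3.72% lower. Still, 15 differences were positive and the median was 0.55. *Plvap*, the diaphragm protein of fenestrated capillaries, had 15.02, 7.39 and 92.7 normalised counts at 7 d and 71.1, 94.7 and 51.3 at 28 d. *Pecam1* had 1.81, 4.72 and 12.5 at 7 d and 12.2, 7.66 and 4.24 at 28 d, and *Tek* (the angiopoietin receptor Tie2) had 1.81, 0.128 and 7.67 at 7 d and 6.01, 8.54 and 4.78 at 28 d. In each, 7 d pool 3 lay within or just above the range of the 28 d pools and the other 7 d pools lay lower than at least 2 of them. The summed list ran from 42.3 to 263 at 7 d and from 112 to 211 at 28 d. Without 7 d pool 3 the median difference was 1.45 and 10 of the 18 members were higher at 28 d without overlap (10.5% of all genes then), and without 7 d pool 1 the median was -0.06. These defining endothelial markers were above 0 in all pools of both groups, and the part of admixed vascular cells in the matrix gene values was not tested.

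Markers of gonadotrophs and thyrotrophs, the pituitary cells that make LH, FSH and TSH, were higher at 28 d in 6 of 10 members without overlap and lower in 0, against 5.19% and 3.72% of all genes. All 10 differences were positive with a median of 0.71, and 4 had an unadjusted p under 0.05, against 3.7% of all genes in this direction. This list was likewise chosen with earlier results known. *Trhr*, the TRH receptor, had 1.14, 0.765 and 0.667 normalised counts at 7 d and 2.68, 9.52 and 5.23 at 28 d. Its log2 difference was 2.48 ± 0.56 (SE; adjusted p = 0.577 in limma, 0.0152 in DESeq2). *Gata2*, the transcription factor of both lineages, had 16.1, 9.56 and 13.2 at 7 d and 28.4, 29.4 and 34.4 at 28 d, a difference of 1.27 ± 0.31. The 28 d pools of both genes lay above every 7 d pool.

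Hormone subunits pointed the same way. *Tshb* (the TSH β subunit) had 259, 133 and 306 normalised counts at 7 d and 709, 442 and 689 at 28 d, with control and DEX means of 204 and 130. *Fshb* (the FSH β subunit) had 423, 561 and 341 at 7 d and 585, 900.4 and 688 at 28 d. *Cga*, the α subunit shared by LH, FSH and TSH, had 3369, 3565 and 4068 at 7 d and 4531, 5353 and 5846 at 28 d. The control mean of *Cga*, 4526 ± 2385 (SD, n = 3), lay just under the 28 d pools but with a wide spread. *Nr5a1* (SF1, a gonadotroph transcription factor) had 16.2, 17.97 and 8.67 at 7 d and 19.4, 20.03 and 24.5 at 28 d. The remaining members of the list, *Lhb*, *Gnrhr*, *Foxl2* and *Dio2*, overlapped between the recovery groups. Together the 10 members summed to between 4139 and 4830 at 7 d, 5953 and 7354 at 28 d and 3344 and 8079 in control pools. For the 5 somatotroph and lactotroph markers the sums were 135692 to 332892 at 7 d and 239080 to 386005 at 28 d. The part of cell content in these differences was not tested.

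**Figure D4:**
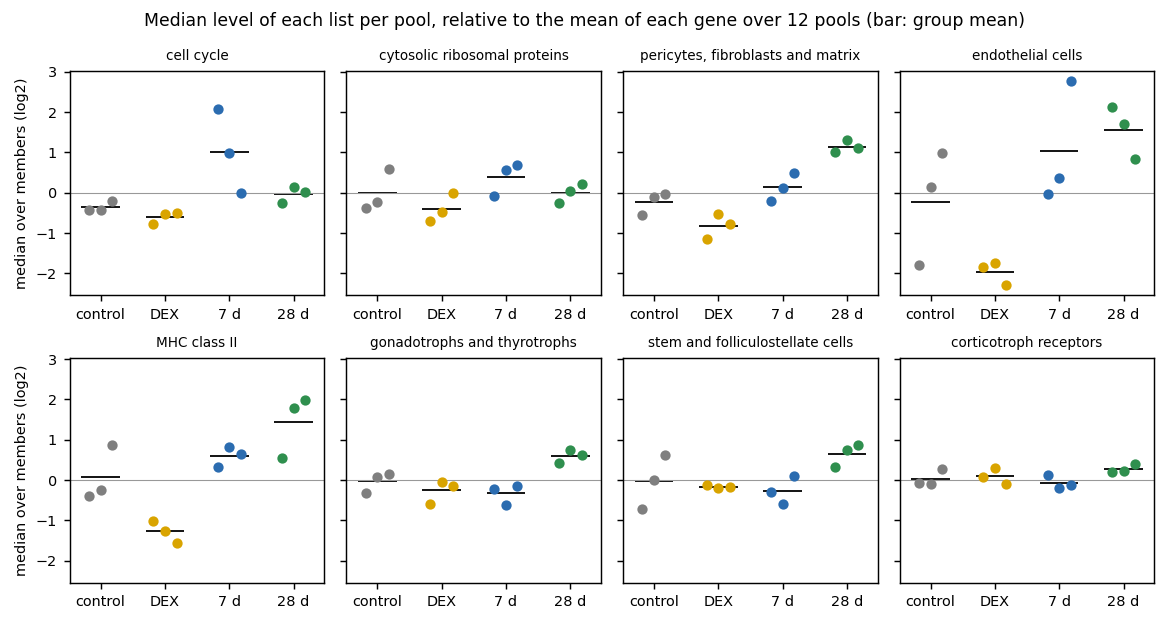
Median over the members of 8 gene lists (y, log2 relative to the mean of each gene over 12 pools) in each pool of the 4 groups (x); points are pools 1 to 3 from left to right and bars are group means. Cell cycle medians ranged from -0.01 to 2.08 over the 7 d pools and from -0.26 to 0.14 over the 28 d pools, the matrix medians at 28 d, from 1.02 to 1.31, lay above those of all other groups, and the endothelial median of 7 d pool 3 (2.78) was the highest of the 12.

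Stem and folliculostellate cell markers had a median difference of 0.96, and 8 of 9 differences were positive. *Cyp2f2*, a cytochrome P450 abundant in these cells, had 111, 230.1 and 168 normalised counts at 7 d and 259, 346 and 383 at 28 d. *Sox2*, the stem cell factor, had 2.85, 0.382 and 6.45 at 7 d and 5.73, 7.66 and 7.76 at 28 d. The groups did not overlap for *Cyp2f2* and overlapped for *Sox2*.

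The machinery that makes and stores ACTH gave few separations, where the shares over all genes were 5.19% higher at 28 d and 3.72% lower. None of the 11 genes of the POMC processing list separated, in either direction. *Pcsk1*, the convertase that cuts POMC to ACTH, had 595, 837 and 193 normalised counts at 7 d and 417, 367 and 348 at 28 d (log2 difference -0.29 ± 0.47, 95% interval -1.29 to 0.72). *Cpe*, carboxypeptidase E, had 2535, 1087 and 1333 at 7 d and 1921, 1679.7 and 1879.96 at 28 d. The 28 d pools of both genes lay inside the 7 d range. Among 12 granin and granule genes, *Chgb* (chromogranin B) was higher at 28 d without overlap, with 2674, 2538 and 1649.5 against 4168, 3069.9 and 3027, and *Scg3* was lower, with 380, 319 and 314 against 278, 284 and 271. *Vgf*, a neuroendocrine granule protein, had 88.3, 194 and 41.4 at 7 d and 48.0, 19.5 and 38.0 at 28 d. *Ptprn* (IA-2, a granule protein of the receptor phosphatase family) had 227, 986 and 344 at 7 d and 186, 181 and 254 at 28 d. Both overlapped, with unadjusted p of 0.00831 and 0.0474 and with 7 d pool 2 the highest of the 6.

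Receptors and transcription factors that define corticotrophs spread widely at 7 d. *Crhr1*, the CRH receptor, had 125, 201 and 12.5 normalised counts at 7 d and 49.2, 52.9 and 101 at 28 d. *Avpr1b*, the vasopressin V1b receptor, had 40.02, 36.7 and 1.56 at 7 d and 14.2, 9.30 and 24.5 at 28 d. *Tbx19* (TPIT), the factor that drives *Pomc*, had 282, 385 and 39.5 at 7 d and 166, 94.4 and 188 at 28 d. In all of these, 7 d pools 1 and 2 lay above and pool 3 below the 28 d pools, the same arrangement as for *Pomc*. Their log2 differences were -0.08 ± 0.74, 0.15 ± 0.90 and -0.18 ± 0.65, with 95% intervals that reach at least 1.21 in either direction. Without 7 d pool 3 they were -1.30, -1.36 and -1.20, and without 7 d pool 2 they were 0.70, 0.87 and 0.44. *Neurod1*, a partner factor at the *Pomc* promoter, had 65.8, 23.1 and 10.8 at 7 d and 17.3, 8.43 and 16.96 at 28 d. Of the 12 genes of the receptor list, only *Adcyap1r1* (the PAC1 receptor for PACAP) separated, higher at 28 d (all genes: 5.19%). It had 5.80, 11.2 and 5.11 at 7 d and 17.6, 12.8 and 14.9 at 28 d. The inhibitory dopamine receptor *Drd2* had 21.4, 25.1 and 52.4 at 7 d and 43.5, 66.8 and 50.8 at 28 d, with overlap.

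Classical glucocorticoid target genes were mixed, with 3 of 24 higher at 28 d without overlap, against 5.19% of all genes, and a list median of 0.25. *Fkbp5*, the glucocorticoid-induced cochaperone that lowers receptor sensitivity, had 72.1, 19.5 and 68.3 normalised counts at 7 d and 100.2, 133 and 129.7 at 28 d. Its control mean was 91.2 and its DEX mean 376. The log2 difference was 1.39 ± 0.42 (SE; unadjusted p = 0.00462) and 0.77 without 7 d pool 2. *Dusp1*, a MAP kinase phosphatase, had 880, 442 and 648 at 7 d and 1264, 1074 and 1143 at 28 d, and *Tsc22d3* (GILZ) had 85.5, 109.9 and 104 at 7 d and 118, 143 and 118 at 28 d. *Per1*, a clock gene that glucocorticoids also induce, had a difference in the other direction (-0.84), with 32.2, 85.4 and 40.2 at 7 d and 37.4, 21.0 and 24.4 at 28 d and overlap. The glucocorticoid receptor, *Nr3c1*, had 167, 102 and 84.6 at 7 d and 82.9, 87.1 and 89.1 at 28 d, with overlap and a 95% interval from -0.95 to 0.18. Among 22 circadian clock genes none separated.

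Immediate early genes gave 3 members of 23 higher at 28 d without overlap and 1 lower, against 5.19% and 3.72% of all genes. *Jund* had 229.8, 15.3 and 106 normalised counts at 7 d and 426, 348 and 358 at 28 d, with a control mean of 418 ± 398 (SD, n = 3). Its log2 difference was 2.38 ± 0.78 and was 1.27 without 7 d pool 2. *Jun* had 760, 425 and 795 at 7 d and 1102, 870.1 and 882 at 28 d. *Fosl2*, a Fos family partner of Jun, was the member lower at 28 d, with 99.5, 196 and 201 at 7 d and 88.4, 78.9 and 68.2 at 28 d. *Cebpb*, a transcription factor gene without introns, was among those with the smallest adjusted p in the likelihood ratio test. It had 3.80, 1.02 and 2.45 at 7 d and 13.9, 42.3 and 53.4 at 28 d, and ranged from 2.05 to 79.6 over the control pools and from 3.92 to 69.3 over the DEX pools. The recovery groups did not overlap, but the spread within the other groups covered both. The limma log2 difference was 3.82 ± 1.12 (adjusted p = 0.701) and 3.33 without pool 2.

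**Figure D5:**
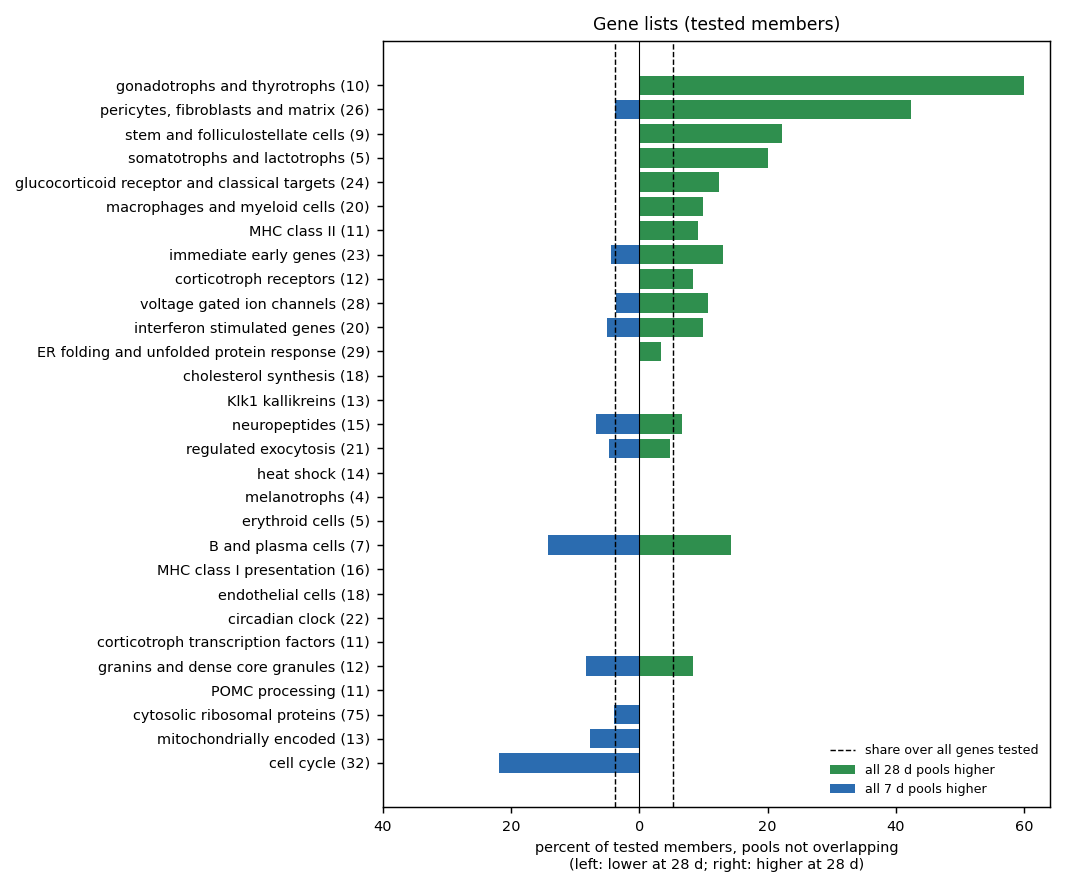
Percent of the tested members of 29 gene lists (y, with the number tested) whose pools did not overlap, drawn to the right where all 28 d pools were higher and to the left where all 7 d pools were higher (x); dashed lines give the shares over all genes tested, 5.19% and 3.72%. The bars that extend farthest are gonadotroph and thyrotroph genes (6 of 10) and matrix genes (11 of 26) on the right and cell cycle genes (7 of 32) on the left.

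The 151 genes that the study listed as changed among its 4 groups were chosen by the study on these same samples, so their counts are no independent evidence. Of them, 24 were higher at 28 d without overlap and 16 lower (all genes: 5.19% and 3.72%). At an unadjusted p under 0.05, 22 were higher and 15 lower (all genes: 3.7% and 1.77%), with a median of 0.10. Beyond the genes above they held *Plat*, tissue plasminogen activator, with 51.9, 38.5 and 40.7 normalised counts at 7 d and 132, 72.1 and 81.1 at 28 d, and *Tril*, a Toll-like receptor accessory protein, with 7.41, 12.9 and 9.23 at 7 d and 23.6, 27.8 and 19.9 at 28 d. Both 28 d groups lay above all 7 d pools and above the control means of 37.9 and 7.82.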

How the data were processed

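RNA of the sorted cells was below the detection limit of the assay used and was amplified (SMART-V4) before sequencing. Per the methods and processing notes, the authors trimmed reads (Trim Galore 0.6.5), aligned them to GRCm38 (STAR 2.7.1a), counted them per gene with strand (featureCounts 2.0.0), and scaled them in edgeR. What the authors deposited is a signal per gene and library, CPM of the effective library size, which includes TMM scaling. The analysis plan had taken them for plain CPM, and its limma test was kept. Divided by the value of 1 read, 100% of 271881 values above 0 were whole within 1e-06 (largest distance 6.29e-09), and these recovered reads entered the count tests.

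Tests were run in R 4.3.3 (limma 3.58.1; edgeR 4.0.16; DESeq2 1.42.0). The main test was limma with a mean-variance trend on log2(value + 0.1) of the 12 libraries in 1 model with 4 groups, with Benjamini-Hochberg adjustment over 24736 genes and a threshold of 0.05. Named genes were *Pomc*, the 12 per direction with the smallest p among genes without overlap, with a mean of at least 1 in the higher group and no predicted symbol, the 5 with the smallest adjusted p in each other test that called genes, and members of 30 lists. The members and lists were chosen with earlier results of these data known, so list counts are no independent evidence. Gene positions are GENCODE annotation on GRCm38 and promoters are RefSeq sequences on GRCm38.p6. Counting precision rests on 9057793 to 12848078 reads per recovery library, where a count of 0 allows up to 3 reads, or 0.271 to 0.382 normalised counts. Such limits cover counting error only. That pools are separate animals rests on the labels. Tests were checked on simulated counts. Alternatives were other pseudocounts, filters, scalings, weights, tests, the replicate number as a block and each library left out.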

Additional observations from a re-analysis of the deposited data

How the results depend on the processing

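The count of genes past an adjusted p of 0.05 was 0 in the main test and 8 with array weights, 165 with the edgeR likelihood ratio test and 15 with DESeq2. The cause was not tested. At an unadjusted p under 0.05 the genes higher at 28 d numbered 915 and were 1627 with array weights. Those lower numbered 437 and were 718 with no filter, 195 with a filter above 1, 1640 with array weights and 1207 with the likelihood ratio test. Leaving out 1 library at a time gave 0 to 1 called genes (*Pm20d2*, without 7 d pool 1), 647 to 1267 higher and 295 to 1063 lower. Without 7 d pool 2 the split turned to 734 higher and 1063 lower. *Pomc* was -1.09 in the main test, -1.11 with median-ratio scaling, -1.24 with quantile normalisation, -1.29 with array weights, -1.42 in the likelihood ratio test (adjusted p = 0.0234), and -1.84 to -0.49 with 1 library left out.

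Differences that changed sign were those of *Igkc* (-2.07, and -3.27 to 0.27 without 1 library, 0.27 without 7 d pool 1), *Pcsk1* (-0.29, and -0.91 to 0.15 without 1 library, 0.15 without 7 d pool 2), *Cpe* (0.24, -0.27 with array weights, and -0.011 without 7 d pool 2 to 0.60 without pool 1), *Tbx19* (-0.18, and -1.20 to 0.44, which was without 7 d pool 2), *Pecam1* (0.62, and -0.061 without 7 d pool 1 to 1.30 without pool 3), *Kdr* (0.48, and -0.060 without 7 d pool 1 to 0.98 without pool 3), *Hspa1a* (-0.41, 0.17 with array weights, and -0.94 to 0.55, which was without 7 d pool 3), *Crhr1* (-0.08, 0.055 with quantile normalisation, and -1.30 without 7 d pool 3 to 0.70 without pool 2) and *Avpr1b* (0.15, -0.99 with array weights, -0.70 in edgeR, -0.69 in DESeq2, and -1.36 without 7 d pool 3 to 0.93 without pool 1). The cause was not tested.

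With the replicate number as a block, 0 genes were called, 1001 were higher and 515 lower at an unadjusted p under 0.05, and *Pomc* stayed at -1.09. Same-numbered pools correlated at 0.11, 0.05 and -0.11 in their deviations, so the numbers were not taken to pair the pools. Depth limits genes under about 1 normalised count, where few reads decide a value.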

Other observations

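Immunoglobulin genes marked a single library. *Igha* had 89.3 normalised counts in 7 d pool 1 and 0.128 and 0.111 in the other 7 d pools, with at most 1 read in any 28 d pool. *Igkc* had 43.4, 0.255 and 0.222 at 7 d and 1.02, 0.219 and 0.0902 at 28 d, and *Jchain* had 17.01, 0.255 and 0 at 7 d and 0.37, 0 and 0 at 28 d. Without 7 d pool 1 the log2 difference of *Igha* was -0.82 in place of -3.71, and that of *Jchain* -0.17 in place of -2.34. The other member of the B and plasma cell list to separate, of 7 tested, was *Cd79b*, higher at 28 d (all genes: 5.19%).

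Genes of antigen presentation by MHC class II had a median difference of 0.70 over 11 members, of which 1 separated. *H2-Ab1* had 22.4, 62.1 and 19.8 normalised counts at 7 d and 29.7, 92.8 and 96.3 at 28 d, and *Cd74*, the invariant chain, had 59.4, 89.5 and 69.2 at 7 d and 70.4, 141 and 155 at 28 d. *H2-DMb2* had no read in any 7 d pool, which allows up to 0.285, 0.382 and 0.334 normalised counts, and 0.0924, 0.766 and 1.44 at 28 d. *Nckap1l*, a haematopoietic regulator of actin, had 9.22, 12.6 and 6.67 at 7 d and 24.4, 23.1 and 23.6 at 28 d, and DESeq2 called it (adjusted p = 0.0251). The pan-leukocyte marker *Ptprc* had 1.14, 1.40 and 1.45 at 7 d and 1.85, 2.96 and 2.26 at 28 d. Interferon-stimulated genes had a median of 0.22 over 20 members, of which 2 were higher and 1 lower without overlap, with *Bst2* at 3.52, 5.61 and 4.11 against 6.65, 7.44 and 9.29. Of 20 macrophage and myeloid genes 2 separated, both higher at 28 d. For these lists the shares over all genes tested were 5.19% higher and 3.72% lower without overlap.

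Transcripts of cytosolic ribosomal proteins gave 73 of 75 negative differences with a median of -0.41. Only 3 members were lower at 28 d without overlap, a share near the 3.72% of all genes. At an unadjusted p under 0.05, 2 were lower (all genes: 1.77%). *Rpl10a* had 74.0, 73.3 and 85.2 normalised counts at 7 d and 68.9, 46.4 and 51.1 at 28 d. The list median was -0.66, -0.33 and -0.25 without 7 d pool 1, 2 or 3. All 14 heat shock genes had negative differences, with a median of -0.38. *Hspa1a* had 374, 321 and 2534 at 7 d and 674, 715 and 271 at 28 d, and 7 d pool 3 was the highest of the 6.

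Of 15 tested neuropeptide genes, *Nmb* was lower at 28 d without overlap and *Nmu* (neuromedin U) higher, with 1.14, 0.51 and 1.78 normalised counts against 2.22, 2.08 and 2.80 (all genes: 3.72% and 5.19%). At an unadjusted p under 0.05, 4 were lower (all genes: 1.77%). *Gal* (galanin) had 22.5, 25.9 and 77.2 normalised counts at 7 d and 25.3, 13.6 and 11.6 at 28 d, and *Cartpt* had 11.3, 28.5 and 7.12 at 7 d and 8.22, 3.50 and 5.68 at 28 d. *Penk* (proenkephalin) overlapped, with 30.04, 22.05 and 23.3 at 7 d and 21.99, 44.2 and 29.0 at 28 d. Among 28 ion channel genes, *Hcn2*, *Kcnc1* and *Kcnk3* were higher at 28 d without overlap and *Scn3a* was lower, against 5.19% and 3.72% of all genes. The list median was -0.02, with 13 positive and 15 negative differences. *Hcn2*, a pacemaker channel, had 0.951, 0 and 0.778 at 7 d and 2.40, 5.58 and 4.33 at 28 d. *Kcnc1*, a fast delayed rectifier potassium channel, had 3.42, 0.892 and 3.67 at 7 d and 8.22, 7.66 and 7.31 at 28 d. *Scn3a*, a sodium channel subunit, had 47.7, 45.8 and 87.4 at 7 d and 34.8, 44.6 and 34.9 at 28 d.

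Lists with no member separated were endothelial, erythroid, melanotroph, MHC class I, heat shock, clock, cholesterol synthesis, kallikrein, corticotroph transcription factor and POMC processing genes. In the folding and unfolded protein response list 1 of 29 separated, *Eif2ak3* (PERK), with 18.3, 4.84 and 16.5 normalised counts at 7 d and 20.6, 27.6 and 26.5 at 28 d. In regulated exocytosis 1 of 21 members was higher and 1 lower without overlap, 17 differences were negative and the median was -0.18. The higher one, *Cplx1*, had at most 16 reads in a recovery pool. Of the 13 mitochondrially encoded genes 1 separated, lower at 28 d, and of the 5 somatotroph and lactotroph genes 1 did, higher at 28 d. Beside these counts stand the shares over all genes, 5.19% higher and 3.72% lower.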
